A study of Mus musculus with 6 samples.

Results

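The genes of the unfolded protein response and of the heat shock response were followed in unstimulated bone marrow-derived macrophages (BMDMs), macrophages grown in culture from mouse bone marrow. The 41 genes were listed by name, for what they are known to do, because the saturation of membrane lipids can trigger stress of the endoplasmic reticulum (ER), and all 41 were found among the 40481 genes of the count table. The choice was made with earlier results of these data known. RNA of 3 samples per genotype, wild-type or *Scd2*-m/-m, was sequenced, with 1 poly(A)-selected library for each sample. *Scd2*-m/-m macrophages came from mice with floxed *Scd2* alleles in which Cre recombinase, carried as a lysozyme M-Cre transgene, deletes the gene in myeloid cells; the wild-type mice are labelled only as wild type, and whether they carried Cre or floxed alleles was not stated in the sources read. Male and female mice were used in the study, and the sex and age behind each library are not given. Nothing in the labels says that replicates came from separate mice or cultures, so the p-values measure the spread between these libraries, which may be technical.

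*Scd2*, the targeted gene, had 66.9, 77.8 and 62.7 counts per 1000000 counts (CPM) in the wild-type libraries (replicates 1, 2 and 3 in turn, here and below) against 59.5, 37.96 and 39.8 CPM in those of *Scd2*-m/-m BMDMs, so the genotypes did not overlap and *Scd2*-m/-m replicate 1 had the most *Scd2* transcript of its group. The log2 fold change was −0.59 ± 0.19 (SE, edgeR FDR = 0.100), and it was −0.83 (FDR = 8.87e-05) without *Scd2*-m/-m replicate 1. The libraries held between 46285176 and 57629638 counts on genes. Of 10 macrophage markers, all were detected, 5 were called lower and 1 higher, and their summed level was 38325 to 39147 CPM in the wild-type libraries against 22188 to 22665 CPM in those of *Scd2*-m/-m BMDMs. Their median log2 fold change was −0.25, a smaller fall than that of the sum, which the most abundant genes dominate. The 10 include *Lyz2*, the lysozyme M gene. How much of the fall of the sum came from *Lyz2*, or from macrophage content, was not tested. Cell division genes were higher, 26 of 27 called, with sums of 187 to 195 CPM against 373 to 407 CPM, and so were markers of neutrophils and their precursors, 6 of 9 tested called, with sums of 22.5 to 26.0 CPM against 35.0 to 45.0 CPM. In bulk RNA, more cells of a kind and more transcript per cell cannot be told apart. The part of cell division or of other cells in the results that follow was not tested. Markers of B cells and plasma cells, which are rich in ER chaperones, summed to 121 to 159 CPM in the wild-type libraries against 127 to 157 CPM in those of *Scd2*-m/-m BMDMs, and of the 6 of 12 that passed the filter on low counts 2 were called higher (median log2 fold change 0.83). Dendritic cell markers, 2 of 6 tested called higher, summed to 1.65 to 2.01 CPM against 2.39 to 3.58 CPM.

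Proteins that enter the ER are folded by chaperones and held together by disulfide bonds that protein disulfide isomerases form and rearrange. When unfolded protein accumulates, or when the ER membrane becomes too saturated, sensors in that membrane start the unfolded protein response. The kinase and RNase IRE1 (*Ern1*) splices the transcript of the transcription factor *Xbp1*, ATF6 is cut in the Golgi to release a transcription factor, and PERK slows translation and favours ATF4. Together they raise chaperones, folding enzymes and the machinery of ER-associated degradation (ERAD), which returns misfolded protein to the cytosol for the proteasome. The heat shock response is its counterpart in the cytosol, where HSF1 drives HSP70, HSP90, HSP40 and small heat shock proteins. Counts per gene do not separate the spliced from the unspliced form of *Xbp1* and do not show whether ATF6 was cut or PERK was active.

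A sequence shared by many ER chaperone genes is the ER stress response element (ERSE), CCAAT and CCACG separated by 9 bases (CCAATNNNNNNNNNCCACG), to which the factor NF-Y and cleaved ATF6 bind. RefSeq promoters on GRCm38, from 250 bases before to 50 bases after a start, were matched by symbol to 32 of the 41 genes. Not matched were *Atf6*, *Derl1*, *Hsf1*, *Hsp90aa1*, *Hsp90ab1*, *Hspa8*, *Hyou1*, *Manf* and *Sec61a1*. An exact ERSE on either strand was held by 9 of the 24 ER genes with a promoter, by none of the 8 cytosolic and mitochondrial genes with one, and by 0.119% of all 32851 promoters (39 of them). The elements are shown here because they mark the genes of this group that share a regulatory sequence, read along CCAAT to CCACG, with the fixed letters in capitals.
*Hspa5*: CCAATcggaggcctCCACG
*Hsp90b1*, nearer the start: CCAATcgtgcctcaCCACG
*Hsp90b1*, farther from the start: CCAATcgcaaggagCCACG
*Calr*: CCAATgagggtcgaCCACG
*Canx*: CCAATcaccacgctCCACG
*Pdia6*: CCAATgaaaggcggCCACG
*Dnajc3*: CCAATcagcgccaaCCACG
*Creld2*: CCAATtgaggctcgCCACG
*Derl3*: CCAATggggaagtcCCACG
*Syvn1*: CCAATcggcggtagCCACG
*Herpud1* held the shorter ERSE-II (ATTGG and CCACG separated by 1 base, found in 0.0365% of all promoters) as ATTGGgCCACG, and *Dnajb11*, 7 bases past its start, as ATTGGcCCACG. The core of the unfolded protein response element (TGACGTGG, in 0.676% of all promoters) was in none of the 32 in this window. ERSE and ERSE-II both end in CCACG, whose reverse complement lies in the third motif, and a match is a stretch of letters and not a shown binding site.

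The 250 bases before the start are printed for *Hspa5*, the reference gene of the response, and for the 3 ERSE genes that passed the test (*Hsp90b1*, *Calr* and *Pdia6*), 5′ to 3′ on the strand of the gene, with each ERSE in capitals on whichever strand it was found.
*Hspa5*, plus strand, chr2:34771840-34772089: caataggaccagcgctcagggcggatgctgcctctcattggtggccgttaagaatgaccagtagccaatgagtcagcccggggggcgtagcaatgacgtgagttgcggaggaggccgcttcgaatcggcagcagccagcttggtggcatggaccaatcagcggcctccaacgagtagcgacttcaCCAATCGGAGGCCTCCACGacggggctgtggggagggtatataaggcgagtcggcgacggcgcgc
*Hsp90b1*, minus strand, chr10:86705445-86705694: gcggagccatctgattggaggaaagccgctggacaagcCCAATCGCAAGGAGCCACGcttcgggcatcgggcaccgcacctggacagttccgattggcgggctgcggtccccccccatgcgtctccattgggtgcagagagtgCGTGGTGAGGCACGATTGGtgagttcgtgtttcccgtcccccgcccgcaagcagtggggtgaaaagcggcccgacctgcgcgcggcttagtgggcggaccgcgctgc
*Calr*, minus strand, chr8:84846932-84847181: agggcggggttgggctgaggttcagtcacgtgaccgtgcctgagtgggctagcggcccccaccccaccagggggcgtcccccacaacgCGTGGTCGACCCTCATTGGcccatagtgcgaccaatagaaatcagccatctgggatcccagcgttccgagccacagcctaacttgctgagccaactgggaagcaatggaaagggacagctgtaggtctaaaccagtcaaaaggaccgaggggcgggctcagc
*Pdia6*, plus strand, chr12:17266339-17266588: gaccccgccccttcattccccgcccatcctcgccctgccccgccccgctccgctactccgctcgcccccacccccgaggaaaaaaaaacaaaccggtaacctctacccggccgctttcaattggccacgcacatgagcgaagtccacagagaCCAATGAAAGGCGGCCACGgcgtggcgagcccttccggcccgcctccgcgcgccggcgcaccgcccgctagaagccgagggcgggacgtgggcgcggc
In the cytosolic and mitochondrial genes the motif searched was the heat shock element (GAANNTTCNNGAA, both strands, in 0.603% of all promoters), which was in 3 of 8, *Hsph1* (past its start), *Hspd1* and *Hspe1*. *Hspd1* and *Hspe1*, which encode the mitochondrial chaperonin HSP60 and its lid HSP10, lie head to head and share one stretch with 2 overlapping matches, 1 on each strand, printed on the strand of *Hspe1* in capitals.
*Hspe1*, plus strand, chr1:55087898-55088147: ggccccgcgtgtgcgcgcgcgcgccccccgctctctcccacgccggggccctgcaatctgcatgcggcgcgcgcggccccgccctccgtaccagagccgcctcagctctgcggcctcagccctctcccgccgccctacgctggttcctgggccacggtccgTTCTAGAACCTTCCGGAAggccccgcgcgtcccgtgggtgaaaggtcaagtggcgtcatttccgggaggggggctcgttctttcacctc

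Of the 41 genes, 40 passed the filter on low counts and were tested, and 12 were called at an FDR below 0.05, 8 of them higher and 4 lower in the *Scd2*-m/-m genotype. The ER and the cytosol went different ways among the called genes. All 8 that rose belong to the ER and its response (*Xbp1*, *Hsp90b1*, *Calr*, *Pdia3*, *Pdia6*, *Edem1*, *Derl2* and *Sec61b*), and the 4 that fell were *Atf6b*, an ER membrane factor, and the cytosolic genes *Hsf1*, *Hspa8* and *Dnajb1*. Among all 14778 genes tested, 17.5% were called, 9.65% higher and 7.84% lower, against 8 and 4 of the 40 here (30.0% in all). With RLE in place of TMM scaling, 6 were called higher and 5 lower. Of the 40 genes, 20 had libraries that did not overlap between genotypes, 15 higher and 5 lower, beside 34.9% of all genes tested (17.9% higher and 17.0% lower). The changes were small. No called gene passed 1.5-fold, as 5.91% of all genes tested did, and the called log2 fold changes lay between −0.37 and 0.41. Of the 40 genes, 17 had an unadjusted p below 0.05, and DESeq2 and limma-voom, which called 13 and 14 genes, each called 1 gene that was past 1.5-fold, *Hspa1b*. It and *Derl3* were past 1.5-fold in edgeR too, at log2 fold changes of 0.61 and 0.73, but were not called. Of the 12 genes, 4 were called with each library left out in turn and under every other alternative tried (*Atf6b*, *Xbp1*, *Pdia3* and *Edem1*), and *Hsp90b1* and *Derl2*, with an FDR of 0.0494 and 0.0471, were called in 6 and 5 of 14 alternatives.

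**Figure D1:**
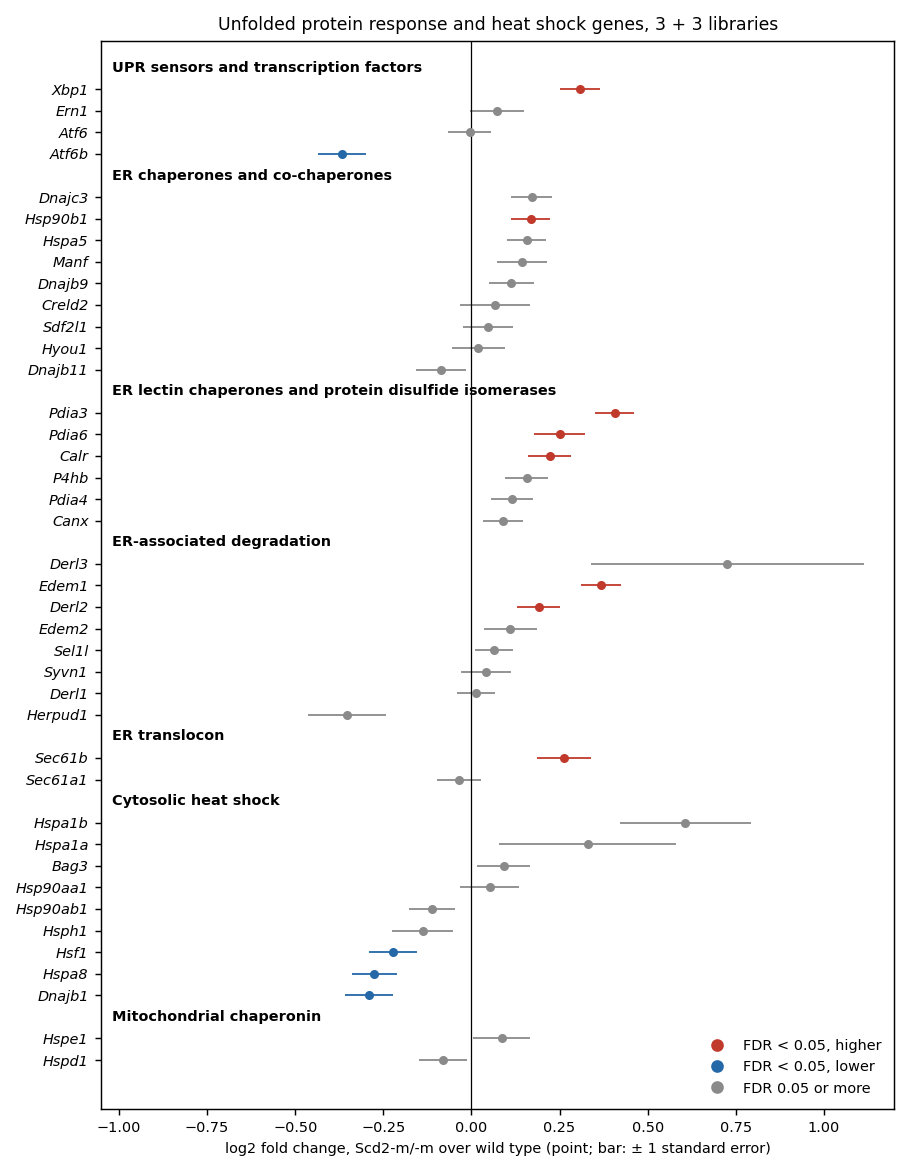
Log2 fold change of the 40 genes tested, by role, with *Scd2*-m/-m over wild type on the x axis and bars of 1 standard error (edgeR, 3 libraries per genotype). Red and blue mark an FDR below 0.05. The 6 lectin chaperones and disulfide isomerases all lie to the right of 0, and *Dnajb1*, *Hspa8* and *Hsf1* lie to the left.

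Among the sensors and transcription factors, *Xbp1* rose. It had 103, 102 and 106 CPM in the wild-type libraries against 135, 126 and 124 CPM in those of *Scd2*-m/-m BMDMs. The genotypes did not overlap, and the log2 fold change was 0.31 ± 0.06 (SE, edgeR FDR = 0.00220), a rise of 23.8%. *Ern1*, whose RNase acts on the *Xbp1* transcript, had 94.8, 112 and 120 CPM in the wild-type libraries against 113, 112 and 119 CPM in those of *Scd2*-m/-m BMDMs, with wild-type replicate 1 below the rest and a log2 fold change of 0.072 (95% interval −0.093 to 0.24, FDR = 0.579, edgeR). The paralogs *Atf6* and *Atf6b* both encode ER membrane proteins that are cut to yield transcription factors, ATF6 being the stronger activator. *Atf6* had 167, 155 and 164 CPM in the wild-type libraries against 161, 153 and 170 CPM in those of *Scd2*-m/-m BMDMs, with a log2 fold change of −0.0052 (95% interval −0.14 to 0.12, FDR = 0.969, edgeR). *Atf6b* had 132, 121 and 119 CPM in the wild-type libraries against 102, 98.2 and 87.7 CPM in those of *Scd2*-m/-m BMDMs. All *Scd2*-m/-m libraries lay below the lowest wild-type one, with a log2 fold change of −0.37 ± 0.07 (SE, edgeR FDR = 0.00215). Within each library the ratio of *Atf6b* to *Atf6* counts was 0.790, 0.780 and 0.723 in the wild-type libraries against 0.633, 0.641 and 0.517 in those of *Scd2*-m/-m BMDMs, a ratio that the scaling of libraries does not touch. Its log2 value differed by −0.36 (p = 0.1 in a two-sided exact permutation test, the smallest p that 3 libraries against 3 allow, adjusted p = 0.117 over 7 ratios chosen after the values were seen).

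The ER chaperones lay close to their wild-type level. Of 9 genes, *Hsp90b1* was called higher and the others were not called, or 11.1% called beside 17.5% of all genes tested. Of the 9 log2 fold changes, 8 were above 0, with a median of 0.11 against 0.0039 over all genes tested. *Hsp90b1* encodes GRP94, the HSP90 of the ER lumen. It had 130, 132 and 131 CPM in the wild-type libraries against 146, 143 and 152 CPM in those of *Scd2*-m/-m BMDMs, without overlap, a log2 fold change of 0.17 ± 0.06 (SE, edgeR FDR = 0.0494), and it lost its call in 8 of 14 alternatives, among them all 6 that leave out a library and RLE scaling. *Hspa5* encodes BiP, the HSP70 of the ER and the gene most often read as a reporter of the response. It had 267, 274 and 283 CPM in the wild-type libraries against 309, 308 and 302 CPM in those of *Scd2*-m/-m BMDMs, so each *Scd2*-m/-m library was above each wild-type library, but the log2 fold change of 0.16 (95% interval 0.036 to 0.28, FDR = 0.0732, edgeR) did not pass the threshold. It was called in 1 of the 14 alternatives, limma-voom with quality weights (FDR = 0.0108). *Dnajc3*, which encodes the co-chaperone P58IPK, had a log2 fold change of 0.17 (FDR = 0.0601), and *Dnajb9*, which encodes the BiP co-chaperone ERdj4 and is a classical target of XBP1, one of 0.11 (FDR = 0.251). *Sdf2l1*, *Manf*, *Creld2* and *Hyou1*, which are among the genes that rise most in acute ER stress, had log2 fold changes of 0.047, 0.14, 0.067 and 0.019, with an FDR from 0.191 to 0.896, and *Dnajb11*, which encodes ERdj3, had −0.088 (FDR = 0.446). The upper ends of the 95% intervals for these 5 genes were between 0.065 and 0.30 on the log2 scale, so a rise of 1.5-fold lay outside each of them.

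The lectin chaperones and protein disulfide isomerases were the role with the most even shift. In all 6, every *Scd2*-m/-m library was above every wild-type library, an arrangement found in 17.9% of all genes tested. Of the 6, 3 were called, all higher, beside 9.65% of all genes called higher and 17.5% called in either direction. *Pdia3* encodes ERp57, the isomerase that works with calreticulin and calnexin on glycoproteins and in the peptide-loading complex of MHC class I. It had 218, 216 and 214 CPM in the wild-type libraries against 279, 286 and 294 CPM in those of *Scd2*-m/-m BMDMs, and it showed the largest log2 fold change among the called genes of this group, 0.41 ± 0.06 (SE, edgeR FDR = 1.97e-04), a rise of 32.6%. *Calr*, which encodes calreticulin, had 434, 422 and 429 CPM in the wild-type libraries against 529, 491 and 479 CPM in those of *Scd2*-m/-m BMDMs, a log2 fold change of 0.22 ± 0.06 (SE, edgeR FDR = 0.0222). *Pdia6* had 65.5, 61.1 and 61.5 CPM in the wild-type libraries against 82.0, 74.3 and 67.3 CPM in those of *Scd2*-m/-m BMDMs, a log2 fold change of 0.25 ± 0.07 (SE, edgeR FDR = 0.0302). In both genes *Scd2*-m/-m replicate 1, which had the most *Scd2* of its own group, was the highest of all 6. In *Pdia3* it was the lowest of its group. Over the 29 ER genes it was the highest of its group in 15 and the lowest in 6. Without *Scd2*-m/-m replicate 1 neither *Calr* nor *Pdia6* was called. *Calr* also lost its call without *Scd2*-m/-m replicate 2 or wild-type replicate 2, as did *Pdia6*, which lost it without wild-type replicate 3 too. *P4hb*, *Pdia4* and *Canx*, which encode protein disulfide isomerase itself, ERp72 and calnexin, had log2 fold changes of 0.16 (FDR = 0.101), 0.12 (FDR = 0.215) and 0.089 (FDR = 0.320). Within each library the ratio of *Pdia3* to *Pdia4* counts was 3.84, 3.79 and 3.78 in the wild-type libraries against 4.50, 4.89 and 4.59 in those of *Scd2*-m/-m BMDMs (p = 0.1 in a two-sided exact permutation test, adjusted p = 0.117). This p is the smallest possible, and the pair was chosen after its values were seen. On the scale of CPM per kilobase of exon, *Calr* stood highest of the ER genes, at 149 in wild-type against 174 in *Scd2*-m/-m BMDMs, above *P4hb* at 92.9 and 104, *Pdia3* at 68.8 and 91.2, and *Hspa5* at 65.0 and 72.4, so that *Pdia3* passed *Canx* (70.0 and 74.4) in order of level.

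**Figure D2:**
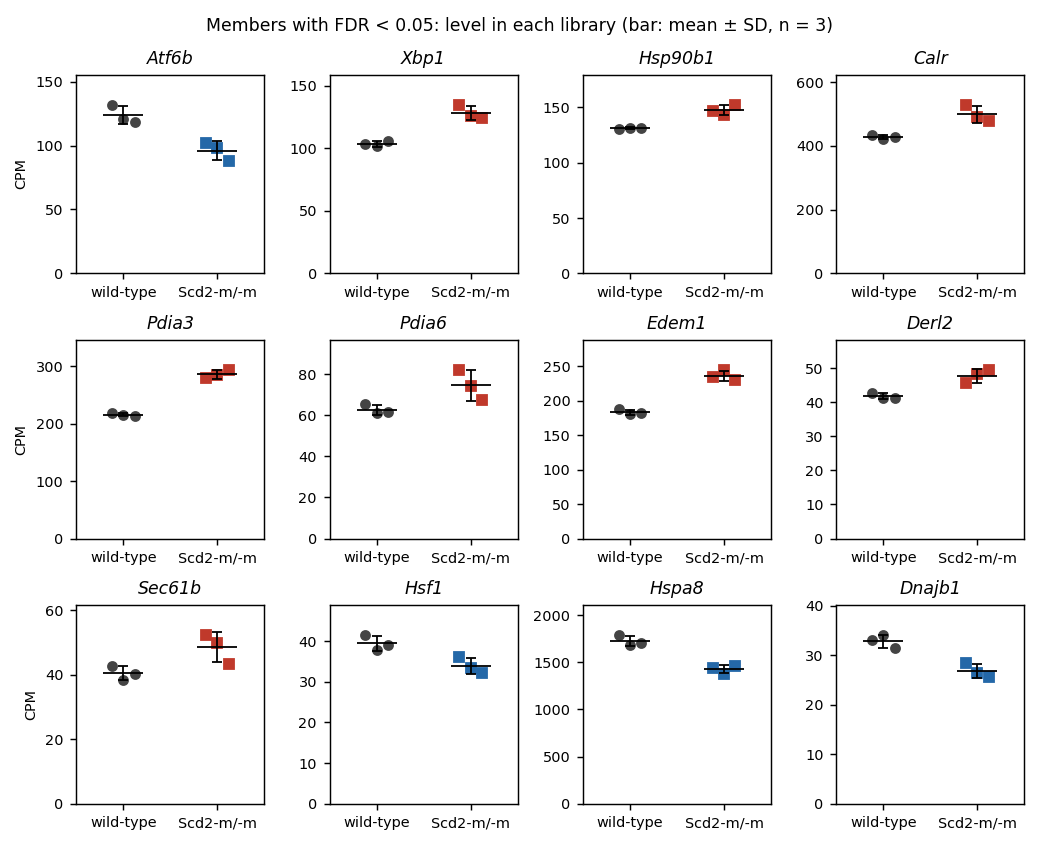
CPM in each library for the 12 genes with an FDR below 0.05, in wild-type (circles) and *Scd2*-m/-m (squares) BMDMs, with the mean and SD of 3 libraries and axes that start at 0. In each panel the genotypes do not overlap, and the shifts are small beside the level, as for *Hspa8*, which lies between 1685 and 1787 CPM in wild-type and between 1380 and 1462 CPM in *Scd2*-m/-m libraries.

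Most genes of ERAD had a log2 fold change above 0, 7 of 8, beside 50.7% of all genes tested. Of 8, *Edem1* and *Derl2* were called higher and none lower, or 25.0% called beside 17.5% of all genes tested. The median log2 fold change was 0.088. *Edem1*, which encodes a mannosidase-like protein that marks misfolded glycoproteins for degradation and is a target of XBP1, had 188, 180 and 182 CPM in the wild-type libraries against 234, 245 and 230 CPM in those of *Scd2*-m/-m BMDMs. The libraries were tight and did not overlap, and the log2 fold change was 0.37 ± 0.06 (SE, edgeR FDR = 4.99e-04), a rise of 28.9%. Its paralog *Edem2* had a log2 fold change of 0.11 (FDR = 0.355), and the ratio of *Edem1* to *Edem2* counts in a library was 2.21, 2.36 and 2.26 in the wild-type libraries against 2.46, 2.79 and 2.95 in those of *Scd2*-m/-m BMDMs (p = 0.1 in a two-sided exact permutation test, adjusted p = 0.117). That pair too was chosen after its values were seen, and no smaller p was possible. *Derl2*, which encodes a derlin of the export channel, had 42.8, 41.2 and 41.3 CPM in the wild-type libraries against 45.5, 48.1 and 49.4 CPM in those of *Scd2*-m/-m BMDMs, a log2 fold change of 0.19 ± 0.06 (SE, edgeR FDR = 0.0471), a call lost in 9 of 14 alternatives, among them 5 of the 6 that leave out a library. It shares exonic bases with *Mis12* on the opposite strand, at 24.3 and 20.8 CPM, and whether the counting used strand is not given. *Derl1*, at 153 and 155 CPM, had a log2 fold change of 0.013 (95% interval −0.10 to 0.13, FDR = 0.903, edgeR). *Syvn1* and *Sel1l*, which encode the ubiquitin ligase HRD1 and its partner, had 0.041 (FDR = 0.747) and 0.065 (FDR = 0.458). *Derl3* rested on 14 to 86 counts per library and had a log2 fold change of 0.73 with a 95% interval from −0.11 to 1.56 (FDR = 0.230, edgeR). It was 0.30 without *Scd2*-m/-m replicate 1, 0.41 without wild-type replicate 2 and as high as 1.03 with another library left out. The estimate rested on few counts and moved with single libraries, and no change was called.

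*Herpud1* stood apart. It encodes HERP, an ERAD scaffold whose transcript is driven by both ATF6 and ATF4, and its level was 55.2, 73.4 and 78.1 CPM in the wild-type libraries against 53.9, 52.0 and 55.9 CPM in those of *Scd2*-m/-m BMDMs. Wild-type replicate 1 lay within the *Scd2*-m/-m range and the other two wild-type libraries far above it. The log2 fold change was −0.35 ± 0.11 (SE, edgeR FDR = 0.0525), and without wild-type replicate 1 it was −0.49 (FDR = 1.77e-04). It passed the threshold in 7 of 14 alternatives, DESeq2 (FDR = 0.00607) and limma-voom (FDR = 0.0489) among them.

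The ER translocon admits new proteins to the ER. *Sec61b*, its beta subunit, had 42.8, 38.3 and 40.3 CPM in the wild-type libraries against 52.2, 49.97 and 43.5 CPM in those of *Scd2*-m/-m BMDMs, a log2 fold change of 0.26 ± 0.08 (SE, edgeR FDR = 0.0285). The gap between *Scd2*-m/-m replicate 3 and wild-type replicate 1 was narrow, and the call was lost in 4 of 14 alternatives, without *Scd2*-m/-m replicate 1 or 2 and without wild-type replicate 2 or 3. *Sec61a1*, the channel itself, had a log2 fold change of −0.036 (95% interval −0.17 to 0.099, FDR = 0.753, edgeR). The ratio of *Sec61b* to *Sec61a1* counts was 0.258, 0.241 and 0.236 in the wild-type libraries against 0.304, 0.312 and 0.287 in those of *Scd2*-m/-m BMDMs (p = 0.1 in a two-sided exact permutation test, adjusted p = 0.117). Again the pair was chosen after its values were seen, with the smallest p possible.

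In the cytosol, 3 of 9 heat shock genes tested were called, all lower, beside 7.84% of all genes called lower and 17.5% called in either direction, and the median log2 fold change was −0.11. *Hsf1*, the transcription factor of the heat shock response, had 41.4, 37.9 and 39.1 CPM in the wild-type libraries against 36.1, 33.4 and 32.1 CPM in those of *Scd2*-m/-m BMDMs, a log2 fold change of −0.22 ± 0.07 (SE, edgeR FDR = 0.0369). Its call was lost in 5 of 14 alternatives, each of which left out a library (each wild-type library, or *Scd2*-m/-m replicate 2 or 3). *Hspa8*, which encodes the constitutive HSP70 known as HSC70, was the most abundant gene of the group at 402 CPM per kilobase of exon in wild-type BMDMs. It had 1787, 1685 and 1708 CPM in the wild-type libraries against 1438, 1380 and 1462 CPM in those of *Scd2*-m/-m BMDMs, without overlap, and fell by 17.4% (log2 fold change −0.28 ± 0.06, SE, edgeR FDR = 0.00812). It lost its call only without *Scd2*-m/-m replicate 2 (FDR = 0.0738). *Dnajb1*, the stress-inducible HSP40 that delivers substrates to HSP70, had 33.1, 34.04 and 31.4 CPM in the wild-type libraries against 28.4, 26.5 and 25.6 CPM in those of *Scd2*-m/-m BMDMs and fell by 18.3% (log2 fold change −0.29 ± 0.07, SE, edgeR FDR = 0.00928). It lost its call without *Scd2*-m/-m replicate 2 or wild-type replicate 2.

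The inducible HSP70 genes had estimates above 0, but neither passed the threshold. *Hspa1b* had 14.3, 10.0 and 9.68 CPM in the wild-type libraries against 18.7, 19.6 and 13.5 CPM in those of *Scd2*-m/-m BMDMs, with wild-type replicate 1 above *Scd2*-m/-m replicate 3, and a log2 fold change of 0.61 ± 0.19 (SE, edgeR FDR = 0.0616). It passed the threshold in 7 of 14 alternatives, such as DESeq2 (FDR = 0.00117) and without wild-type replicate 1 (0.81, FDR = 0.00122). *Hspa1a* had 5.52, 3.40 and 4.07 CPM in the wild-type libraries against 5.93, 6.88 and 3.60 CPM in those of *Scd2*-m/-m BMDMs, with overlap and a log2 fold change of 0.33 ± 0.25 (SE, edgeR FDR = 0.426). Both genes lie on the minus strand of chromosome 17 (34969190 to 34972156 for *Hspa1a* and 34956436 to 34959238 for *Hspa1b*) and are near-identical, so how reads were split between them is uncertain. Summed before the test, they had 19.8, 13.4 and 13.8 CPM in the wild-type libraries against 24.6, 26.5 and 17.1 CPM in those of *Scd2*-m/-m BMDMs, a log2 fold change of 0.54 ± 0.22 (SE, edgeR FDR = 0.170). The sum was lowest in *Scd2*-m/-m replicate 3 and highest in wild-type replicate 1 of their groups, so the groups overlapped.

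The other cytosolic chaperones were not called. *Hsp90ab1*, the constitutive HSP90, had a log2 fold change of −0.11 (95% interval −0.25 to 0.026, FDR = 0.263), with each *Scd2*-m/-m library below each wild-type library, and *Hsp90aa1*, the inducible HSP90, had 0.052 (FDR = 0.731). *Hsph1* and *Bag3*, which encode an HSP110 and an HSP70 co-chaperone and are targets of HSF1, had −0.14 (FDR = 0.313) and 0.092 (FDR = 0.453). In the mitochondrion, *Hspd1* had −0.081 (FDR = 0.465) and *Hspe1* 0.085 (FDR = 0.516), each with a 95% interval that spans 0. With a library left out, *Hspd1* ranged from −0.13 to −0.040, nearest to 0 without wild-type replicate 1, and *Hspe1* from 0.0020 to 0.13, nearest to 0 without *Scd2*-m/-m replicate 3. *Hspb1*, a small heat shock protein gene, had 0 to 12 counts per library and was not tested. Within the wild-type group, replicate 1 was the highest library for 10 of the 11 cytosolic and mitochondrial genes tested, and for 16 of the 29 ER genes.

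Summed over the 41 genes, the level was nearly the same in both genotypes, 6194 ± 137 CPM in the wild-type libraries against 6197 ± 97.4 CPM in those of *Scd2*-m/-m BMDMs (SD, n = 3). The parts were not. The 29 ER genes summed to 3646, 3573 and 3636 CPM in wild-type and to 4055, 3929 and 3893 CPM in *Scd2*-m/-m libraries, and the 10 cytosolic heat shock genes to 2621, 2440 and 2430 CPM against 2180, 2125 and 2173 CPM, most of which is *Hspa8*. The sums of both parts did not overlap between genotypes and lay on opposite sides, while the mitochondrial pair overlapped, at 73.2 to 83.3 CPM and 73.6 to 83.0 CPM. The separation of the cytosolic sum rested on *Hspa8*. Without it, a choice made after the values were seen, the other 9 genes summed to 834, 755 and 722 CPM against 742, 744 and 711 CPM, which overlapped. Over the ER genes, 24 of 29 log2 fold changes were above 0 (median 0.11), and over the cytosolic and mitochondrial genes 5 of 11 (median −0.081), beside 50.7% of all genes tested. The ratio of *Hspa8* to *Hspa5* counts within a library was 6.68, 6.15 and 6.03 in the wild-type libraries against 4.64, 4.49 and 4.85 in those of *Scd2*-m/-m BMDMs, a difference of −0.43 in log2 value (p = 0.1 in a two-sided exact permutation test, the smallest p possible, adjusted p = 0.117 over the 7 ratios, which were chosen after the values were seen).

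**Figure D3:**
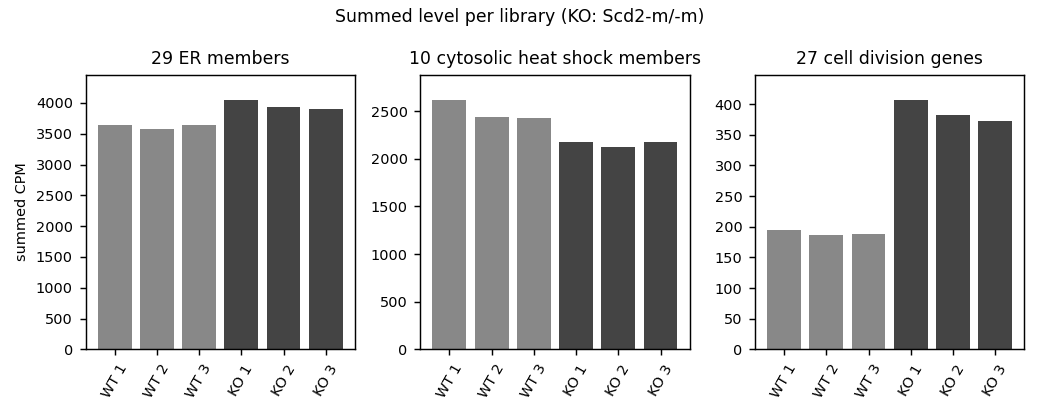
Summed CPM per library (bars from 0) of the 29 ER genes, the 10 cytosolic heat shock genes and, for comparison, 27 cell division genes, with WT for wild type and KO for *Scd2*-m/-m. The ER sum was 3573 to 3646 CPM in the wild-type libraries against 3893 to 4055 CPM in those of *Scd2*-m/-m BMDMs, and the cytosolic sum was 2430 to 2621 CPM in the wild-type libraries against 2125 to 2180 CPM in those of *Scd2*-m/-m BMDMs.

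The genes with an ERSE in the window can be read against these values. All 9 had a log2 fold change above 0, from 0.041 (*Syvn1*) to 0.73 (*Derl3*, a value that rests on few counts and was 0.30 without *Scd2*-m/-m replicate 1), and 3 were called (*Hsp90b1*, *Calr* and *Pdia6*). Over all 29 ER genes, with or without an ERSE, 24 were above 0 and 9 were called, beside 50.7% and 17.5% of all genes tested. Whether the ERSE bears on the shift was not tested. The 2 with an ERSE-II, *Herpud1* and *Dnajb11*, had values below 0. Among genes outside the group, 9 with an exact ERSE were tested, and their median was −0.14, with 4 of 9 above 0. Among these, *1700122E12Rik*, *Calr4*, *Xlr3a* and *Acacb* had wild-type means of only 0.16 to 0.56 CPM and SE of 0.51 to 0.83. Better measured, at wild-type means of 16.5 to 170 CPM, were *Adcy3* (−0.37), *Alg12* (−0.14), *Hnrnpa3* (0.18) and *Pan2* (0.11). *Xlr3b* had −0.30 at 2.23 CPM (SE 0.63). Both sets hold few genes, and a difference between them was not tested. *Pdia3*, *Edem1* and *Xbp1*, the called genes with the largest rises, held none of the 4 motifs in this window, and neither did *Atf6b* or *Dnajb1*. The heat shock element genes *Hsph1*, *Hspd1* and *Hspe1* were not called.

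Other genes of the same pathways, taken from 10 lists, are described by their counts. Of 187 genes, 178 were tested and 28 were called, 14 higher and 14 lower, or 15.7% beside 17.5% of all genes tested, with a median log2 fold change of 0.0053. No called gene among them passed 1.5-fold. In the PERK and ATF4 branch, 1 of 11 tested genes was called higher and 1 lower. *Eif2ak3*, which encodes PERK, had 40.0 ± 0.543 CPM in the wild-type libraries against 36.8 ± 0.797 CPM in those of *Scd2*-m/-m BMDMs (SD, n = 3), with a log2 fold change of −0.12 (FDR = 0.201, edgeR). *Atf4* had −0.11 (FDR = 0.262), *Ddit3*, which encodes the pro-apoptotic factor CHOP, 0.13 (FDR = 0.235), and *Ppp1r15a*, which encodes the phosphatase subunit GADD34, −0.027 (FDR = 0.820). The called pair were *Asns*, asparagine synthetase, at 0.44 (FDR = 0.0118), and *Sesn2*, a stress-induced inhibitor of mTORC1, at −0.34 (FDR = 0.0136). *Chac1* was too low to be tested. Among transducers of ER stress, *Rtcb*, the ligase that joins the exons of *Xbp1* after IRE1 has cut it, went down from 87.4 ± 3.73 to 69.4 ± 2.82 CPM (log2 fold change −0.33, edgeR FDR = 0.00195), and *Creb3l2* rose by 0.26 on the log2 scale (FDR = 0.0332).

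**Figure D4:**
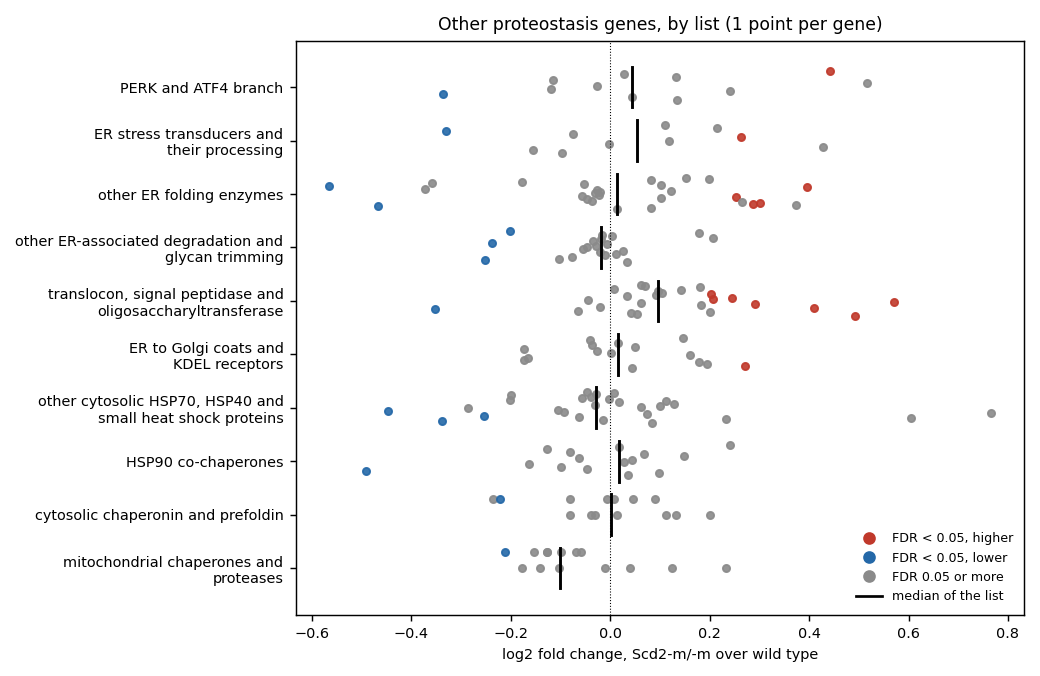
Log2 fold change of each tested gene in 10 lists of other proteostasis genes, 1 point per gene, with the list median as a black line and colours for an FDR below 0.05. The translocon list has 7 of 25 genes called higher, and the 4 cytosolic and mitochondrial lists at the bottom have no gene called higher.

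The list with the most calls was that of the translocon, signal peptidase and oligosaccharyltransferase, which carry new proteins into the ER, cut their signal peptides and attach their glycans. Of its 25 genes 7 were called higher and 1 lower, 32.0% in all beside 17.5% of all genes tested, and 21 of the 25 log2 fold changes were above 0 (median 0.096). *Sec61g*, the gamma subunit of the translocon, rose from 43.2 ± 3.64 to 64.2 ± 9.16 CPM (log2 fold change 0.57, FDR = 0.00153, edgeR), *Sec11c*, a signal peptidase catalytic subunit, from 37.3 ± 1.63 to 52.4 ± 1.70 CPM (0.49, FDR = 1.14e-04) and *Tusc3*, an oligosaccharyltransferase subunit, from 16.1 ± 0.495 to 21.5 ± 0.0867 CPM (0.41, FDR = 0.00122). *Srprb*, of the signal recognition particle receptor, fell by 0.35 on the log2 scale (FDR = 0.00745). Of 27 other ER folding enzymes, 4 were called higher and 2 lower. *Ero1lb*, an oxidase that recharges protein disulfide isomerases, rose by 0.40 (FDR = 0.00127), while *Cnpy3*, a GRP94 partner that folds Toll-like receptors, fell from 134 ± 0.655 to 90.9 ± 2.30 CPM (−0.57, FDR = 1.05e-05) and *Mogs*, the first glucosidase of N-glycan trimming, fell by 0.47 (FDR = 7.50e-04). In the list of other ERAD genes 3 of 20 were called, all lower, among them *Ube2g2*, which encodes a ubiquitin-conjugating enzyme (−0.25, FDR = 0.0145), and *Aup1*, which encodes a membrane protein that recruits it (−0.24, FDR = 0.0236). In the coats and KDEL receptors, *Sar1b* alone of 15 was called (0.27, FDR = 0.0259).

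Cytosolic and mitochondrial chaperones outside the 41 genes held 6 called genes, all lower, among 70 tested in 4 lists, where 17.5% of all genes tested were called and 7.84% were called lower. Of the HSP70, HSP40 and small heat shock genes, 3 of 27 were called, *Dnajb2* (−0.45, FDR = 0.00630), *Hspa2* (−0.34, FDR = 0.0327) and *Stub1*, which encodes the ubiquitin ligase CHIP (−0.25, FDR = 0.0294). *Fkbp4*, an immunophilin partner of HSP90, fell from 49.2 ± 0.991 to 35.0 ± 0.597 CPM (−0.49, FDR = 7.41e-05, edgeR) and was the only one called of 15 HSP90 co-chaperones. *Pfdn5*, a prefoldin subunit, had −0.22 (FDR = 0.0147), 1 of 14 genes of the chaperonin and prefoldin list, and *Dnaja3*, a mitochondrial HSP40, had −0.21 (FDR = 0.0364), 1 of 14 mitochondrial chaperones and proteases.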

How the data were processed

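RNA-seq counts were analysed for 3 wild-type and 3 *Scd2*-m/-m BMDM libraries. Reads were aligned by the authors (STAR, mouse genome GRCm38), who deposited raw counts for each gene in each library. The counting tool and its strand setting: not given in the sources used here. Of 40757 entries, 276 repeats of a gene were removed, leaving 40481. A second deposited table, which holds the authors' own comparison (log2 fold changes and p-values), was not used. Library totals were 46285176 to 57629638 counts, and all tested genes of the group but *Derl3* (14 to 86 counts) had at least 157 counts in each library. Replicates differed by more than counting noise, with a chi-square per gene of 10.4 to 31.5.

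Genes were filtered with filterByExpr, scaled by TMM and tested with edgeR 4.0.16 (R 4.3.3, robust quasi-likelihood fit, genotype as the only term), with Benjamini-Hochberg adjustment (FDR) over 14778 genes and calls at an FDR below 0.05. CPM are counts per 1000000 counts of the TMM-scaled library, and CPM per kilobase divide by the union of annotated exons. Fold changes are *Scd2*-m/-m over wild type. Alternatives were RLE and upper-quartile scaling, DESeq2 1.42.0, limma-voom 3.58.1 (plain, or with library quality weights), a looser and a stricter count filter, a replicate block, each library left out, a stricter FDR of 0.01, and *Hspa1a* and *Hspa1b* summed. The fit was tested on simulated counts with known changes. Exact permutation tests used scipy 1.17.1, and promoters came from RefSeq (GRCm38.p6).

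The members and lists were chosen with earlier results of these data known. Values for every library were given for called genes, the sensors, *Hspa5*, *Hsf1*, *Hspa1a* and *Hspa1b*; of each pathway list, the called genes of lowest p, 3 at most, were named, with *Eif2ak3*, *Atf4*, *Ddit3* and *Ppp1r15a*. *Herpud1*, *Srprb*, *Chac1*, the ratio pairs and the count of ERSE genes outside the group were chosen after their values were seen. *Hspa14* was not analysed here, and 1 called gene of the pathway lists is not reported here.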

Additional observations from a re-analysis of the deposited data

How the results depend on the processing

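Of the 12 calls, those of *Atf6b*, *Xbp1*, *Pdia3* and *Edem1* held under each of the 14 other fits. The number of the 41 genes called was 4 to 11 with a library left out, 4 without *Scd2*-m/-m replicate 2, 5 without wild-type replicate 2 and 7 without wild-type replicate 3, and 6 at an FDR below 0.01. The pathway lists had 28 calls, 15 to 27 with a library left out, 49 under limma-voom with quality weights and 12 at an FDR below 0.01. All genes had 2585 calls, 1440 to 2567 with a library left out, 4507 with quality weights and 1331 at an FDR below 0.01. Of the 41 genes 0 were both called by edgeR and past 1.5-fold, but 1 was under DESeq2, limma-voom, the filter of at least 1 count and the replicate block, 2 were with quality weights, and 0 to 1 were with a library left out. A fit with a library left out has fewer degrees of freedom, but the cause of these shifts was not tested.

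The correlations could not tell whether the replicate numbers pair the libraries, since all lay near 0, between −0.074 and 0.053. Same-numbered libraries correlated at 0.053, −0.0196 and 0.0398. Wild-type replicates 1 and 3 correlated best with the *Scd2*-m/-m library of the same number, and wild-type replicate 2 with *Scd2*-m/-m replicate 3. With the replicate block 14 of the 41 genes, 33 pathway genes and 2974 genes in all were called; 11 of the 12 calls were shared, *Derl2* was lost, and *Herpud1*, *Hspa1b* and *P4hb* were gained.

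Signs turned only for genes that were not called. *Atf6* was 0.00343 with upper-quartile scaling, 0.000421 with at least 10 counts in every library, 0.0166 without wild-type replicate 1, 0.00285 without wild-type replicate 3 and 0.0317 without *Scd2*-m/-m replicate 2. *Hyou1* was −0.018 with quality weights, −0.00173 without wild-type replicate 2 and −0.0747 without *Scd2*-m/-m replicate 1, which also turned *Sdf2l1* (−0.0309) and *Syvn1* (−0.0417). *Ern1* was −0.0197 without wild-type replicate 1, *Derl1* −0.00205 without wild-type replicate 2, *Hsp90aa1* −0.0378 without wild-type replicate 3, *Creld2* −0.0278 without *Scd2*-m/-m replicate 2 and *Sec61a1* 0.0077 without *Scd2*-m/-m replicate 3. With a library left out, the log2 fold change ranged from −0.0197 to 0.145 for *Ern1*, −0.0431 to 0.0317 for *Atf6*, −0.0747 to 0.0662 for *Hyou1*, −0.0309 to 0.0997 for *Sdf2l1*, −0.0278 to 0.131 for *Creld2*, −0.0417 to 0.0892 for *Syvn1*, −0.00205 to 0.0301 for *Derl1*, −0.0847 to 0.0077 for *Sec61a1* and −0.0378 to 0.133 for *Hsp90aa1*. Among the 41 genes, *Derl3* and *Hspb1* had few counts, and the estimate for *Derl3* also moved with single libraries.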

Other observations

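Genes outside the group that hold the same motifs in their RefSeq promoters gave these values. Of 6 tested genes with an ERSE-II, 2 were called higher, *Nucb1* and *Krtcap2*, and the median log2 fold change was 0.18. Of 56 tested genes with a heat shock element, 7 were called higher and 2 lower (median 0.030), and of 101 with the core of the unfolded protein response element, 4 were called higher and 9 lower (median −0.0015), beside 17.5% of all genes tested called, 9.65% higher and 7.84% lower. These sets were read after the values of the group were known, and no test was made on them.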
